A study of Mus musculus with 20 samples.

Results

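SOX proteins are transcription factors that bend DNA through a shared HMG box. In cartilage SOX9, a member of the SoxE group, is the regulator that makes and keeps a cell a chondrocyte, and it switches on collagen II, aggrecan and other matrix genes. SOX5 and SOX6, of the SoxD group, carry no activation domain of their own and help SOX9 on the same enhancers. SOX8 is a close SoxE relative of SOX9, and SOX4 and SOX11, of the SoxC group, are best known from progenitor cells, including those of the embryonic skeleton.

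The expression of Sox4, Sox11, Sox5, Sox6, Sox8 and Sox9 was examined in articular cartilage of male mice on Illumina MouseWG-6 v2 arrays, through every array probe annotated with one of these gene symbols. These 6 genes, of 19057 with a probe of their own, had 21 such probes of 45281. The groups were Dio2-/- mice after forced treadmill-running (Dio2-/- Run, 6 arrays), non-running Dio2-/- mice (Dio2-/- NoRun, 3 arrays), wild-type mice after the same running (wild-type Run, 8 arrays) and non-running wild-type mice (wild-type NoRun, 3 arrays). Dio2 encodes the deiodinase that turns thyroxine into active thyroid hormone. The Dio2-/- line had been backcrossed onto C57Bl/6 for 6 generations, the mice were 4 to 6 months old, and each array held RNA pooled from the left knees of 2 mice. The methods describe the wild-type mice both as bought from a breeder and as littermates, and if they were bought, genotype and origin cannot be told apart. The running groups ran 1 hour a day on 5 days a week for 3 weeks, at 11 m/min and an inclination of 5 degrees.

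Median raw intensities of the arrays lay between 162.3 and 223, between 18469 and 21386 probes were detected on an array, and any 2 arrays correlated at 0.913 to 0.993. Dio2-/- NoRun replicate 16 and Dio2-/- Run replicate 24 stood apart from the other 18 arrays. The arrays lay on 6 chips. All 3 Dio2-/- NoRun arrays were on chip 5 with no other group, so chip and group cannot be told apart there. The 3 wild-type NoRun arrays shared chip 4 with 1 Dio2-/- Run array, and no chip held both wild-type Run and wild-type NoRun. Chip and running therefore cannot be told apart within wild-type mice. One Dio2 probe was detected on 7 of 9 Dio2-/- and 2 of 11 wild-type arrays and the other on none, and where these probes lie relative to the deleted part is not given, so they did not check the genotype. Of 7 chondrocyte markers on the array, 5 passed the detection filter. Col2a1, the main collagen of cartilage, was at 12.82 to 15.2 on the log2 scale over the 20 arrays and Acan, its main proteoglycan, at 10.04 to 11.62, whereas Matn3 and Cnmd did not pass. Fewer cells of a type and less RNA per cell cannot be told apart in such pooled tissue.

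A probe counted as detected on an array at a detection P below 0.05, and was tested when detected on at least 3 of the 20 arrays. Of the 21 SOX probes, 15 were tested, against 23148 of all 45281. Sox4 had 2 tested of 2 probes, Sox11 2 of 4, Sox5 4 of 6, Sox6 3 of 5, Sox8 2 of 2 and Sox9 2 of 2. Of these, 7 were detected on all 20 arrays and 8 on 3 to 19 arrays. The 7 were 1 probe of Sox4, 3 of Sox5, 1 of Sox6 and 2 of Sox9. On no array were 5 of the probes detected, and their normalized log2 intensities lay between 4.66 and 5.45, which shows where background lay on this scale. They were Sox11 ILMN_2643394 and ILMN_1251337, Sox5 ILMN_2610223 and ILMN_1213910, and Sox6 ILMN_2566142. Sox6 ILMN_2702322 was detected on 2 arrays, both Dio2-/-. Every level below is a normalized log2 intensity, and levels of different probes are not set against each other because probes differ in how well they bind their target.

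Sox4 gave the only call among the SOX probes. Its bright probe ILMN_2727116 fell by 1.09 on the log2 scale in wild-type Run relative to wild-type NoRun (SE 0.205, 95% interval -1.52 to -0.66, limma adjusted P = 0.0336), a 2.13-fold lower level. This was 1 of 15 SOX probes called at an adjusted P below 0.05 in this comparison, where 0.194% of all tested probes were called, or 0.125% in the direction lower in Run. By unadjusted P it was the 23rd smallest of all tested probes.

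Because Sox4 gave the only call, the 250 bases upstream of its annotated start are shown, from RefSeq on GRCm38.p6, chr13:28953700-28953949, on the minus strand and read in the direction of the gene. Capitals mark matches to CCAAT on either strand, the binding letters of the factor NF-Y.
Sox4 upstream: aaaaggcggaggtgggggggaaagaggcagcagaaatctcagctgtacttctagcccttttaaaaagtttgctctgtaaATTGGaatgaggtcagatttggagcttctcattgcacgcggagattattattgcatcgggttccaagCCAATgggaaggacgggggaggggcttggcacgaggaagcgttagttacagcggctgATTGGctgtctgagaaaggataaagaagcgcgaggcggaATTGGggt
The window held 4 such matches, none of which overlapped another. At least 1 match was present in 33.8% of 32851 upstream windows of the same length, and 4 or more in 0.84%. The letters AACAAT, a core bound by SOX proteins, and the GC box GGGCGG were each found 0 times on either strand, against 9.42% and 32.7% of windows with at least 1. These are counts of letters and not of bound sites.

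The bright Sox4 probe was at 10.90, 10.36, 10.31, 10.85, 10.23 and 9.94 in the Dio2-/- Run arrays and at 11.22, 10.87 and 10.93 in the Dio2-/- NoRun arrays. In wild-type Run the lowest array was at 10.27, the median at 10.59 and the highest at 11.27, against 11.91, 11.70 and 11.66 in wild-type NoRun. The 3 wild-type NoRun arrays were thus above all 17 other arrays, as they were for 165 tested probes in all (0.713%). All wild-type Run arrays lay below all wild-type NoRun arrays for 1 of the 15 tested SOX probes, this one, and for 3.41% of all tested probes.

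**Figure D1:**
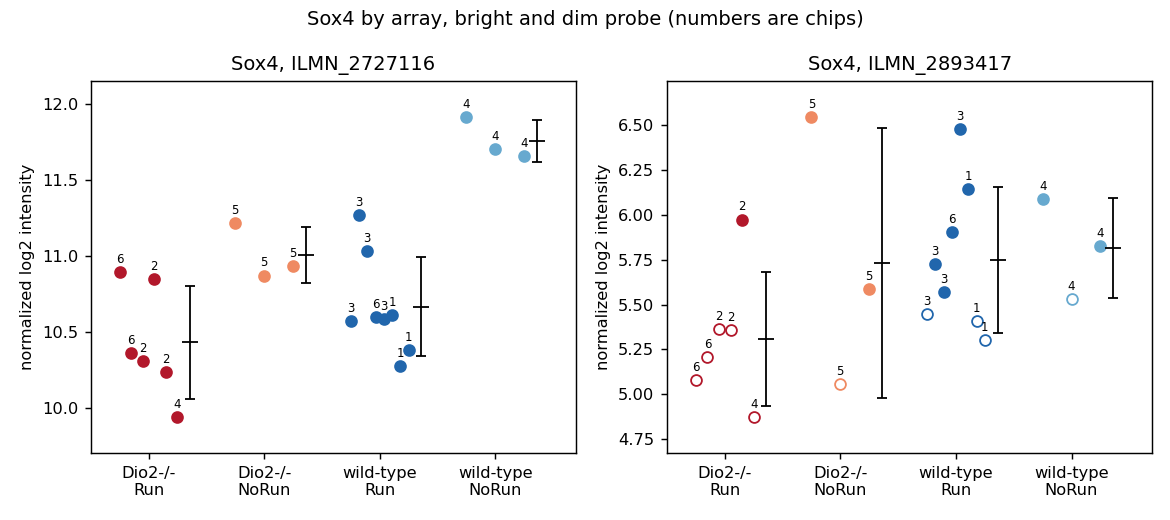
Normalized log2 intensity of the bright (left) and dim (right) Sox4 probe on each of the 20 arrays by group. Filled points are detected and open points not detected, numbers are chips, and bars are the group mean and SD. On the bright probe the 3 wild-type NoRun arrays lie between 11.66 and 11.91, above all others. On the dim probe the groups overlap.

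The Sox4 call lay near the threshold and turned on single arrays. It was lost on leaving out any of 10 arrays singly, with adjusted P from 0.0509 to 0.261, and kept on leaving out any of the other 10, while the log2 FC stayed between -1.18 and -1.01. The 10 were wild-type NoRun 12 (0.261), 14 (0.125) and 15 (0.0981), wild-type Run 20, 23, 27, 29, 30 and 31 (0.0615 to 0.0673) and Dio2-/- Run 25 (0.0509), which enters through the shared estimate of the spread. With chip as a fixed block the log2 FC was -1.85 (adjusted P = 0.119), and with chip as a random block -1.16 (adjusted P = 0.0794). On chip 4 itself the Dio2-/- Run array was at 9.94, the lowest of all 20, against a mean of 11.76 in the 3 wild-type NoRun arrays. That difference of -1.82 is between genotypes as well as running states, and it rests on 1 Dio2-/- Run array. It enters the fixed-block value of -1.85, since no chip held both wild-type groups. Within wild-type Run the chips overlapped little, with 10.27 to 10.61 on chip 1, 10.57 to 11.27 on chip 3 and 10.6 on chip 6, and every one of them was below the wild-type NoRun arrays. Chips 1, 3 and 6 held no wild-type NoRun array, so these values do not separate chip from running.

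In Dio2-/- mice the bright Sox4 probe averaged 10.43 ± 0.37 in Run (SD, n = 6) and 11.01 ± 0.18 in NoRun (SD, n = 3). The log2 FC with running was -0.58 (SE 0.214, limma adjusted P = 0.162), and without Dio2-/- Run replicate 24 it was -0.67 (adjusted P = 0.0455). Without Dio2-/- NoRun replicate 16 as well, the log2 FC was -0.56 (adjusted P = 0.232). Over all probes 213 were then called, against 31 with all arrays. No SOX probe was called among 15 in this comparison, where 0.134% of all tested probes were. The running effect in Dio2-/- minus that in wild-type was 0.52 (95% interval -0.10 to 1.13, adjusted P = 0.956), so the 2 running effects were not shown to differ. None of the 15 SOX probes was called for this interaction, and 0% of all tested probes were, 0 by adjusted and 1187 by unadjusted P below 0.05.

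Between Dio2-/- and wild-type mice the log2 difference of the bright Sox4 probe was -0.39 (SE 0.143, unadjusted P = 0.0121, limma adjusted P = 0.262) with running in the model. It was -0.24 among running mice (adjusted P = 0.711) and -0.75 among non-running mice (adjusted P = 0.341). None of these passed the threshold. On chip 6, the 2 Dio2-/- Run arrays averaged 10.63, against 10.6 in the 1 wild-type Run array. When chip entered as a fixed block, genotype gave 0.03 (SE 0.325, limma adjusted P = 0.982). This is the same chip 6 difference, since no other chip held both genotypes in the same running state. With chip as a random block genotype gave -0.4 (limma adjusted P = 0.407).

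The chondrocyte markers are given beside Sox4. The mean log2 level of the 5 tested markers was 9.86 to 11.05 in Dio2-/- Run and 10.35 to 10.83 in Dio2-/- NoRun. It was 9.51 to 10.71 in wild-type Run and 10.87 to 11.05 in wild-type NoRun. The wild-type Run range lay below that of wild-type NoRun, a separation that 3.41% of all tested probes showed singly. Its share among means of several genes was not computed. All 5 had negative log2 FCs with running in wild-type, with a median of -0.63, and none was called. The bright Sox4 probe correlated with this mean at r = 0.72 over the 20 arrays, and at 0.74 over the 18 without Dio2-/- NoRun 16 and Dio2-/- Run 24. The part of chondrocyte content in the Sox4 difference was not tested. Sox4 is also known from B cell progenitors, and the mean of 7 B lineage markers, 8.43 to 9.13 in wild-type Run and 8.35 to 9.15 in wild-type NoRun, overlapped between those groups and correlated with Sox4 at 0.14 over 20 arrays and 0.44 over 18. The mean of 9 osteoblast and osteocyte markers, 10.53 to 11.28 in wild-type Run and 10.94 to 11.27 in wild-type NoRun, also overlapped and correlated with Sox4 at 0.16 and 0.55. The part of these cells was not tested either.

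For the dim Sox4 probe ILMN_2893417 no difference passed the test. It was detected on 3 of 9 Dio2-/- and 7 of 11 wild-type arrays. Its level was 5.30, 5.65 and 6.48 at the lowest, median and highest in wild-type Run, against 6.09, 5.53 and 5.83 in wild-type NoRun, and the groups overlapped. The log2 FC was -0.07 (95% interval -0.65 to 0.52, adjusted P = 0.942). To ask whether the probes of a gene shifted by unequal amounts, the difference between a dimmer probe and the brightest tested probe of the same gene was fitted over 7259 such pairs from 4914 genes. For Sox4 the log2 FC of the dim probe minus that of the bright one was 1.02, the dim probe having shifted less (SE 0.308, 95% interval 0.38 to 1.67, adjusted P = 0.0849), which missed the threshold. None of the 9 SOX pairs was called for running in wild-type, where 1.94% of all pairs were. Without background correction, which keeps the background in the dim probe's signal, the same Sox4 difference was 0.99 and passed (adjusted P = 0.00554). In that setting 260 of 7259 pairs passed. With chip as a random block the difference was 1.08 and did not pass (adjusted P = 0.213). The dim probe lay close to background, and it followed the bright probe with r = 0.35.

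Sox9, the master regulator, was detected by both probes on all 20 arrays and was called in no comparison. Its bright probe ILMN_2778151 was at 11.34, 11.81 and 12.45 at the lowest, median and highest in Dio2-/- Run, and at 12.64, 12.19 and 12.10 in Dio2-/- NoRun. Wild-type Run ranged from 11.19 to 12.30 with a median of 11.59, and wild-type NoRun was at 12.10, 11.80 and 12.10. Both Run groups overlapped their NoRun groups. The genotype difference was 0.22 (95% interval -0.12 to 0.56, adjusted P = 0.53), the running difference -0.48 in Dio2-/- (-1.03 to 0.06, adjusted P = 0.315) and -0.35 in wild-type (-0.87 to 0.17, adjusted P = 0.575). The interval for running in Dio2-/- reached down to a 2.04-fold lower level.

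The dim Sox9 probe ILMN_3007428 gave 0.28 for genotype (adjusted P = 0.455), -0.36 for running in Dio2-/- (adjusted P = 0.476) and -0.18 for running in wild-type (adjusted P = 0.803). The signs were those of the bright probe. The unequal shift was 0.06 for genotype (95% interval -0.22 to 0.35) and 0.17 for running in wild-type (-0.27 to 0.61), and the 2 probes correlated at 0.76. Over all 7259 pairs the median correlation was 0.39, and 0.52 over the 4147 pairs detected on all 20 arrays. The dim probe was spread widely in wild-type Run, from 5.84 to 7.10.

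**Figure D2:**
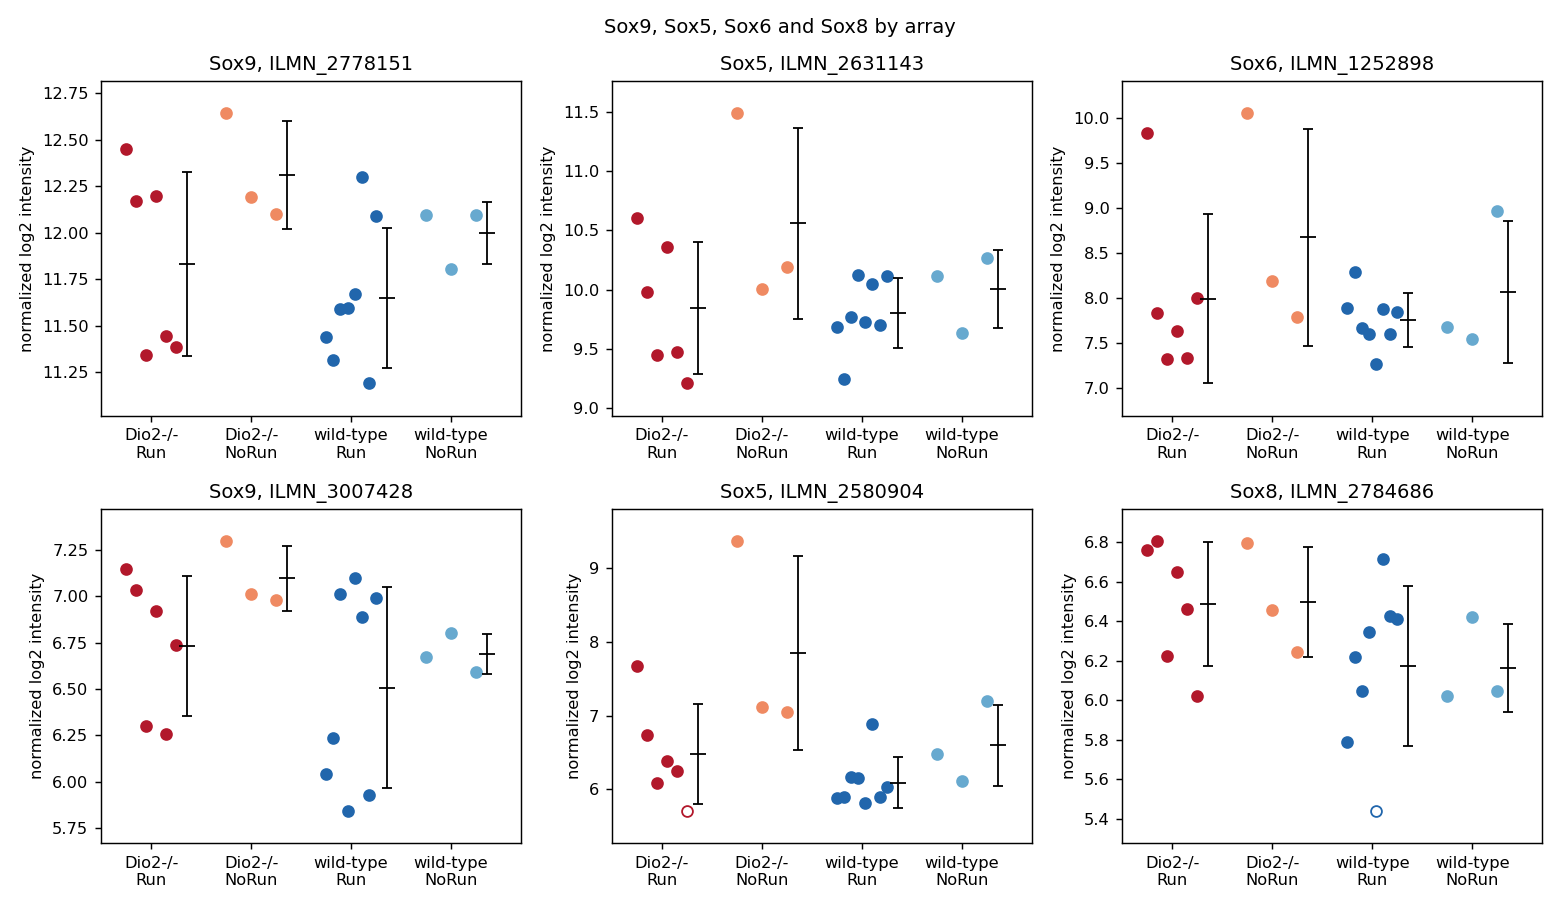
Normalized log2 intensity of both Sox9 probes, 2 Sox5 probes and the brightest Sox6 and Sox8 probes on each of the 20 arrays by group, with group mean and SD; open points are not detected. Single arrays reach 9.37 on Sox5 ILMN_2580904 and 9.83 and 10.05 on Sox6, far above the rest of their groups.

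Sox5, a partner of SOX9, was measured by 4 tested probes. The brightest, ILMN_2631143, was at 9.21, 9.73 and 10.61 at the lowest, median and highest in Dio2-/- Run and at 11.49, 10.01 and 10.19 in Dio2-/- NoRun. It ranged from 9.24 to 10.12 in wild-type Run with a median of 9.75, against 10.12, 9.64 and 10.27 in wild-type NoRun. Dio2-/- NoRun replicate 16 was the highest of all 20 arrays and the groups otherwise overlapped.

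Over all arrays the 4 Sox5 probes had negative log2 FCs with running in both genotypes. In Dio2-/- mice they were -0.71, -0.75, -0.41 and -1.37 for ILMN_2631143, ILMN_2448591, ILMN_1244213 and ILMN_2580904, with adjusted P from 0.114 to 0.422. In wild-type mice they were -0.21, -0.32, -0.35 and -0.51, with adjusted P from 0.608 to 0.803. The steepest, ILMN_2580904, was at 7.67, 6.74, 6.09, 6.39, 6.25 and 5.71 in Dio2-/- Run, against 9.37, 7.12 and 7.06 in Dio2-/- NoRun. Only 1 Dio2-/- Run array, replicate 24 at 7.67, lay among the Dio2-/- NoRun arrays. The Sox5 differences in Dio2-/- turned on single arrays. Without Dio2-/- NoRun replicate 16 they were -0.25, -0.14, 0.04 and -0.61 in the order above, so that ILMN_1244213 changed direction, and the adjusted P of ILMN_2580904 was 0.592. For that probe the log2 FC without Dio2-/- Run replicate 24 was -1.61 and passed the threshold (adjusted P = 0.0175). The share of all tested probes called in that fit is not given here. With Dio2-/- NoRun replicate 16 left out as well, calls over all probes were 213, against 31 with all arrays.

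For genotype the Sox5 probes were at 0.20, 0.33, 0.13 and 0.65 in the same order. ILMN_2580904 had an unadjusted P = 0.0333 and an adjusted P = 0.317. No SOX probe was called for genotype, where 0.00432% of all tested probes were. At an unadjusted P below 0.05 there were 4 of 15 SOX probes, against 14.3% of all tested probes, namely Sox4 ILMN_2727116, Sox5 ILMN_2580904 and both Sox8 probes. Of these, Sox8 ILMN_1259039 had passed the detection filter through Dio2-/- arrays alone, so its place in this count is no support for a difference. Without the arrays Dio2-/- NoRun 16 and Dio2-/- Run 24 the Sox5 value was 0.24 (adjusted P = 0.613).

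The Sox5 probes followed each other closely. The 3 dimmer ones correlated with the brightest at 0.96, 0.90 and 0.88, and at 0.91, 0.75 and 0.67 over the 18 arrays without the 2 that stood apart. With genotype the log2 FC of ILMN_2580904 exceeded that of the brightest probe by 0.45 (95% interval 0.12 to 0.77, adjusted P = 0.281), and no SOX pair was called for genotype, nor was any other pair (0%). Without background correction that excess was 0.12.

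**Figure D3:**
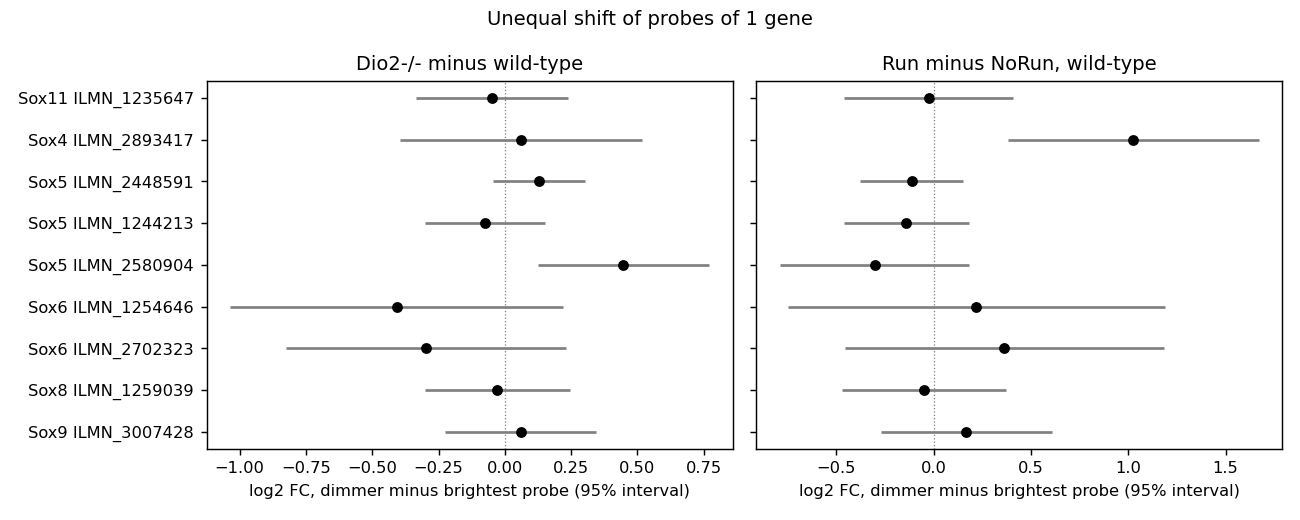
Log2 FC of each dimmer probe minus that of the brightest tested probe of the same gene, for genotype (left) and running in wild-type (right), with 95% intervals, for the 9 SOX probe pairs. Most intervals include 0, and the dim Sox4 probe stands out on the right at 1.02.

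Sox6, the other SoxD partner, turned on the same arrays. Its bright probe ILMN_1252898 was at 9.83, 7.83, 7.33, 7.63, 7.33 and 8.00 in Dio2-/- Run and at 10.05, 8.18 and 7.79 in Dio2-/- NoRun. It lay between 7.26 and 8.28 in wild-type Run with a median of 7.75, against 7.68, 7.54 and 8.97 in wild-type NoRun. The high values belonged to Dio2-/- NoRun 16, Dio2-/- Run 24 and wild-type NoRun 15. The genotype difference was 0.35 (SE 0.305, adjusted P = 0.606) over all arrays and -0.11 (adjusted P = 0.84) without the first 2 of these, so its direction did not hold. With running it was -0.68 in Dio2-/- (adjusted P = 0.443), and 0.00 without Dio2-/- NoRun 16, and -0.31 in wild-type (adjusted P = 0.811).

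The dimmer tested Sox6 probes ILMN_2702323 and ILMN_1254646 were detected on 9 and 3 arrays. Their largest log2 FC in the genotype comparison and both running comparisons was -0.25, for ILMN_1254646 with running in Dio2-/- mice (adjusted P = 0.551). They correlated with the bright probe at 0.56 and 0.29, and at 0.04 and 0.05 without the 2 arrays.

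Sox8, the SoxE relative of Sox9, had 2 tested probes, and neither was called for genotype. ILMN_2784686 was detected on 9 of 9 Dio2-/- and 10 of 11 wild-type arrays, with 6.49 ± 0.28 in Dio2-/- and 6.17 ± 0.35 in wild-type mice (SD). The difference was 0.32 (95% interval 0.02 to 0.62, unadjusted P = 0.0387, limma adjusted P = 0.33). ILMN_1259039 was detected on 5 of 9 Dio2-/- arrays and on 0 of 11 wild-type arrays, so it entered the test through Dio2-/- arrays alone, which favoured a positive sign, and it is no second support for the first probe. Its measured means were 5.70 in Dio2-/- and 5.41 in wild-type, a log2 FC of 0.29 (adjusted P = 0.237). No wild-type array was above background. With wild-type levels raised to at least the lowest signal among detected probes of their array, the Dio2-/- mean was 1.07-fold higher. That mean includes Dio2-/- arrays without detected signal. The value leaves out the spread between arrays, so it is not a lower limit of the difference. Ranges overlapped for both probes, from 5.33 to 6.10 in Dio2-/- and 5.16 to 5.63 in wild-type for the second. The 2 probes correlated at 0.61, and with running neither had a log2 FC beyond 0.09 in either genotype.

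Sox11, the SoxC relative of Sox4, was at the edge of detection. ILMN_2616196 was detected on 3 of 9 Dio2-/- and 2 of 11 wild-type arrays, with levels from 5.16 to 5.87 in Dio2-/- and 5.25 to 5.86 in wild-type. ILMN_1235647 was detected on 2 of 9 and 1 of 11. Their log2 FCs ran from -0.37 to 0.09 over genotype and running, with adjusted P from 0.323 to 0.905, and no change of Sox11 was detectable at this signal.

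**Figure D4:**
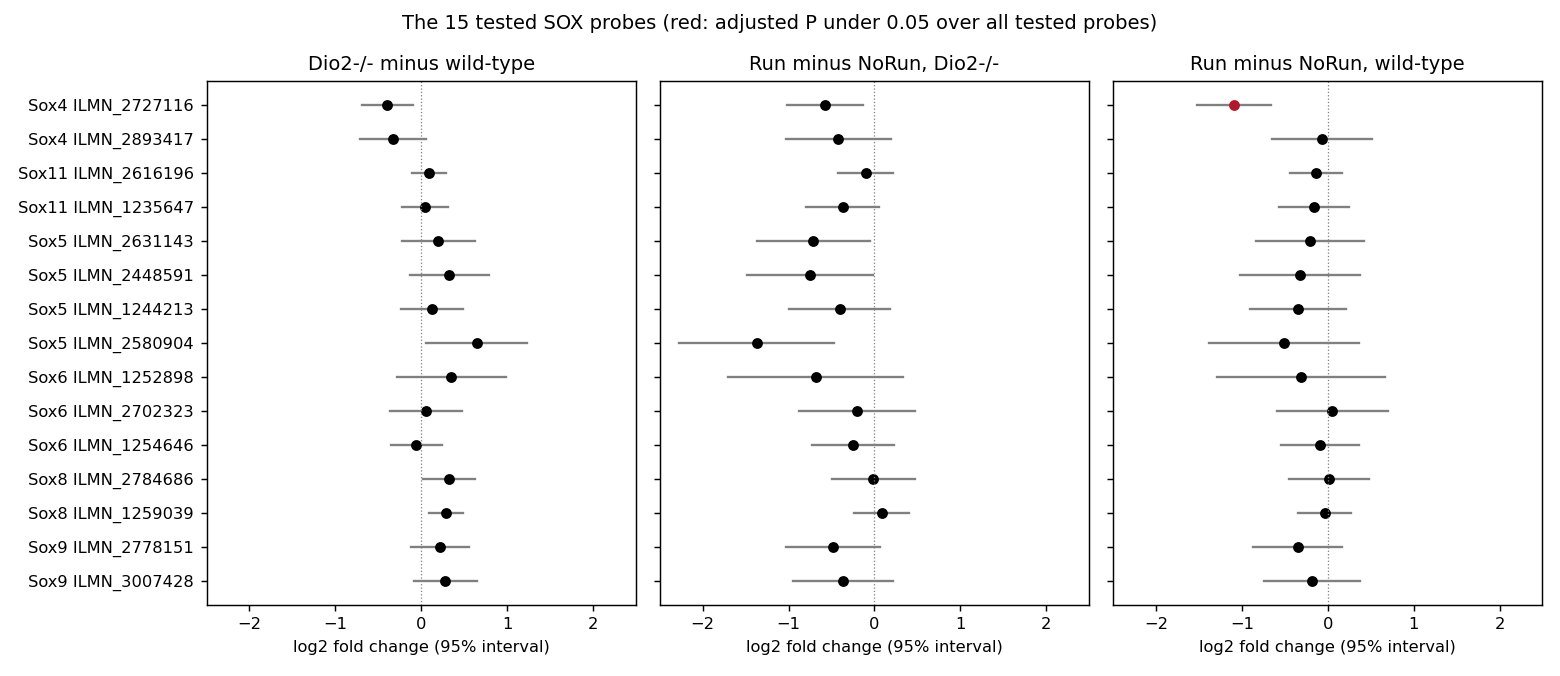
Log2 FC with 95% interval of the 15 tested SOX probes for Dio2-/- minus wild-type, Run minus NoRun in Dio2-/- and Run minus NoRun in wild-type. The bright Sox4 probe in wild-type, at -1.09, is the one call (red), and 14 and 13 of 15 points lie below 0 in the middle and right panels. Without Dio2-/- NoRun replicate 16 the 14 become 8.

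The directions of all 15 tested SOX probes were counted in each comparison. For genotype 12 were higher and 3 lower in Dio2-/-, with a median log2 FC of 0.20, against -0.00232 over all tested probes. Single arrays set the size of this median. Without Dio2-/- NoRun 16 it was 0.0851, with 10 higher and 5 lower, without Dio2-/- Run 24 it was 0.11, with 11 higher and 4 lower, and without wild-type NoRun 14 it was 0.129. With running in Dio2-/- mice 1 was higher and 14 lower, with a median of -0.41 against 0.0206, and 4 of 15 had an unadjusted P below 0.05, against 19.2% of all probes. That lean rested on 1 array: without Dio2-/- NoRun 16, 7 were higher and 8 lower, with a median of -0.0134. With running in wild-type 2 were higher and 13 lower, with a median of -0.18 against 0.0119, and 1 of 15 had an unadjusted P below 0.05, against 13.2%. Without wild-type NoRun 15 the median was -0.0842, again with 2 higher and 13 lower. These probes are not independent, since several share a gene, and the 2 comparisons within Run or NoRun use the same arrays as the comparisons above. Among non-running mice no SOX probe was called, where 0.0432% of all tested probes were, and among running mice none was either (0%, with 1891 probes at an unadjusted P below 0.05).

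Levels of Sox5 and Sox9 went together across the arrays. The brightest probes of Sox5 and Sox9 correlated at 0.85 over 20 arrays, at 0.81 over 18, and at 0.81 on deviations from the group means. Sox5 and Sox6 correlated at 0.70, but at 0.21 without the 2 arrays that stood apart, and Sox6 and Sox9 at 0.60 and 0.29. Sox4 and Sox9 correlated at 0.39. The arrays share chips, dissection and tissue makeup. The mean of 4 tendon and fibroblast markers correlated with Sox5 at 0.86 (0.81 over 18 arrays) and with Sox9 at 0.78 (0.68). The chondrocyte mean correlated with them at 0.53 and 0.61. Of that tendon list the tenocyte genes Tnmd and Thbs4 did not pass the detection filter, and its mean ranged from 8.01 to 9.24 in Dio2-/- Run, 8.55 to 9.41 in Dio2-/- NoRun, 8.04 to 8.81 in wild-type Run and 8.50 to 8.94 in wild-type NoRun. Sox5 and Sox6 ran against the mean of 9 neutrophil and granulocyte markers, at -0.77 and -0.82, and at -0.02 and 0.05 without the 2 arrays. That mean was 13.35 in Dio2-/- NoRun replicate 16 and 14.33 in Dio2-/- Run replicate 24, the 2 arrays that stood apart. Its lowest values were 15.14 in wild-type Run and 15.19 in wild-type NoRun. The group medians were 15.14 in Dio2-/- Run, 15.18 in Dio2-/- NoRun, 15.23 in wild-type Run and 15.2 in wild-type NoRun. The mean of 6 endothelium markers correlated with Sox5 at 0.66 (0.25 over 18 arrays) and with Sox6 at 0.61 (-0.2). That of 9 skeletal muscle markers correlated at 0.33 (-0.23) and 0.44 (-0.24), and that of 5 erythroid markers at 0.23 (-0.45) and 0.4 (0.12). All 9 muscle markers were higher in Dio2-/- (median 0.504 against 0.00939 over all genes). With running in wild-type all 9 were lower (median -0.295 against 0.00916), and none was called in either comparison. The part of tissue makeup in these correlations was not tested.

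**Figure D5:**
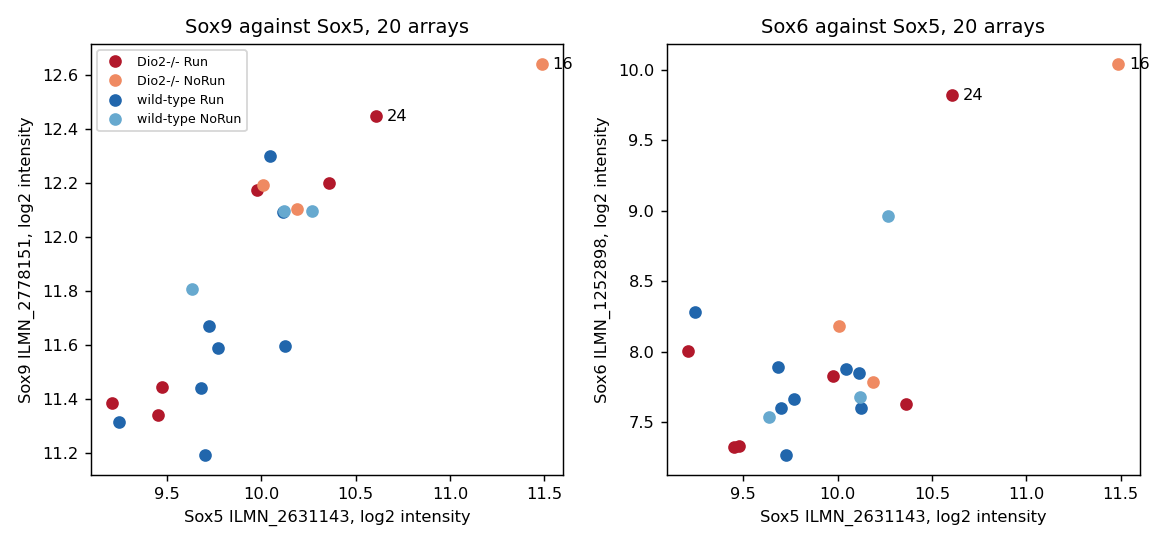
Brightest Sox9 probe (left) and brightest Sox6 probe (right) against the brightest Sox5 probe on 20 arrays, as normalized log2 intensities. Sox9 and Sox5 correlate at 0.85, and at 0.81 without the arrays marked 16 and 24, while Sox6 and Sox5 correlate at 0.70 and, without them, at 0.21.

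The genes most like each member over the 20 arrays, by correlation with its brightest probe, are given as a description. For Sox4 they were Lbh (r = 0.89), Cpm (0.89) and Septin11 (0.89). Lbh, a transcriptional cofactor of limb development, was lower in wild-type Run by the same limma comparison (log2 FC -1.0013, adjusted P = 0.00451). So was Septin11, a cytoskeletal GTPase (-0.69, adjusted P = 0.0477), while Cpm, a carboxypeptidase, was at -0.67 (adjusted P = 0.149). Since these genes were picked by their correlation with Sox4 on the same arrays, their lower levels are no separate support for the Sox4 difference. For Sox9 they were Ccn2, a matricellular growth factor of cartilage (0.94), Hbegf, a ligand of the EGF receptor (0.91), and Gprasp1 (0.90). For Sox5 they were the homeobox gene Barx1 (0.94), the Hedgehog effector Gli3 (0.93) and the kinase gene Stk38l (0.93), and for Sox6 St6galnac3 (0.96), Fryl (0.95) and Mrm1 (0.95). Sox8 was closest to Phc1 (0.80), Stc2 (0.77) and Lsg1 (0.77), and Sox11 to Zfp446 (0.77), Zbtb49 (0.74) and Sin3a (0.74). Over the 18 arrays without the 2 that stood apart, the Sox6 values were 0.88, 0.86 and 0.78 in the order given. Those of Sox5 were 0.86, 0.85 and 0.86, of Sox4 0.92, 0.92 and 0.89, and of Sox9 0.92, 0.88 and 0.87. Those of Sox8 were 0.76, 0.74 and 0.73, and of Sox11 0.81, 0.73 and 0.75.

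Of 13 other SOX genes on the array 7 were tested, and none was called for genotype or running. For genotype 6 were higher and 1 lower in Dio2-/-, with a median of 0.17 against 0.00939 over 12310 genes. The smallest P values were those of Sox10, the neural crest SoxE member, at 0.51 (adjusted P = 0.266), and of Sox7 and Sox17, which act in vessels, at 0.28 and 0.33. With running in wild-type 2 were higher and 5 lower, or 4 higher and 3 lower without wild-type NoRun 15, and Sox17 was at -0.81 (adjusted P = 0.344), Sox13 at 0.25 and Sox7 at -0.26.

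Cartilage genes that SOX9, SOX5 or SOX6 bind or activate were tested for 19 of 23 on the array, and none passed the threshold in any comparison. With running in wild-type mice 17 of 19 were lower, with a median of -0.37 against 0.00916 over all genes. Over all tested probes 51.7% were higher in that comparison. The 5 tested chondrocyte markers given beside Sox4 are among these 19, so their lower levels are not a separate observation. Col27a1, a fibrillar collagen of cartilage, was at -0.68 (adjusted P = 0.189), Col2a1 at -1.11 (adjusted P = 0.203) and Acan at -0.60 (adjusted P = 0.263). With running in Dio2-/- mice 13 of 19 were lower, with a median of -0.19 against 0.0205, and without Dio2-/- NoRun 16 it was 9 of 19, with a median of 0.00852. For genotype 13 were higher and 6 lower, with a median of 0.04 that ranged from 0.0191 to 0.109 when single arrays were left out, and the matrix genes Chad (0.38, adjusted P = 0.292), Matn4 (0.43, adjusted P = 0.359) and Comp (0.35, adjusted P = 0.373) had the smallest P values.

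Other regulators of chondrocyte differentiation were tested for 11 of 14. Zfp219, which encodes a partner of SOX9, was at 0.67 with running in wild-type and just missed the threshold (adjusted P = 0.0575). Zbtb20, a repressor that acts in hypertrophic chondrocytes, was at -0.93 (adjusted P = 0.17) and Pth1r, the receptor for parathyroid hormone-related protein, at -0.39 (adjusted P = 0.365). For genotype Zfp219 was at 0.32 (adjusted P = 0.237), Arid5b, a coactivator of SOX9, at -0.31 (adjusted P = 0.339), and Gdf5, a joint morphogen, at 0.34 (adjusted P = 0.372). In all, 4 of these 11 regulators were higher and 7 lower with running in wild-type, and 7 higher and 4 lower in Dio2-/- than in wild-type, or 5 and 6 without wild-type Run 21.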

How the data were processed

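The authors deposited raw probe intensities with detection p-values for 20 arrays, 1 column per array, and their own normalized log2 values, by a method that these sources do not state. GenomeStudio is named in the submitters' processing notes. The raw intensities were background-corrected and quantile-normalized with neqc of limma 3.58.1 (R 4.3.3, offset 16), and a probe was tested if 3 arrays or more had a detection p-value under 0.05. Genotype was fitted with running as a covariate, and the other comparisons as contrasts of 4 groups with lmFit and eBayes over all 20 arrays. P values were adjusted by Benjamini-Hochberg over all 23148 tested probes. A gene was represented by its brightest tested probe, except that every SOX probe was kept. Groups came from the sample labels, and chips from the array identifiers. Each gene name came from the platform annotation, for probes with 1 symbol. All SOX probes are named, and of each gene list the members with the 3 smallest P values. Members and lists were chosen with earlier results of these data known. The script was tested on simulated data. The number of arrays limits the precision. P values measure the spread between pools, which were separate animals. No paired analysis was possible because the replicate numbers are not shared between groups. Alternatives were no background correction, an offset of 50, cyclic loess, the authors' log2 values, 2 other detection filters, chip as fixed or random block, array weights, a robust trend fit, and leaving out arrays. Differences within chips, and counts of directions without single arrays, were added after the data were seen.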

Additional observations from a re-analysis of the deposited data

Results flagged for a closer look

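Among 30 combinations of a tested probe and a running group, 3 held an array far from the rest of its group by Dixon's test, which by chance alone picks out about 1 in 20 groups. Sox6 ILMN_1252898 was at 9.83 in Dio2-/- Run replicate 24, and the next array of that group was at 8.00. Sox5 ILMN_2580904 was at 6.88 in wild-type Run replicate 29, and the next was at 6.16. Sox11 ILMN_1235647 was at 5.66 in wild-type Run replicate 23, and the next was at 5.35, with no array of that group detected. Outside the tested probes, Sox6 ILMN_2702322 was detected on 2 arrays, Dio2-/- Run 24 at 5.81 and Dio2-/- NoRun 16 at 6.37, which were also the highest arrays of the bright Sox6 probe, and on no wild-type array.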

How the results depend on the processing

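Of 189 log2 FCs of SOX probes recomputed for genotype, 189 for running in wild-type and 174 for running in Dio2-/-, 16, 13 and 17 changed sign. The 1 SOX call for running in wild-type became 0 with chip as a fixed or random block, and 0 to 1 when single arrays were left out. Those groups shared no chip, so the fixed block linked them through the Dio2-/- Run arrays of chips 4 and 6 and through 1 wild-type Run array. For running in Dio2-/- the count was 2 with array weights, where the weights did not fully converge and 5881 probes of all were called, and 0 to 2 when arrays were left out. For genotype among non-running mice it was 1 with array weights. The Sox4 pair was called for running in wild-type, 1 pair in place of 0, without background correction, with the authors' values and without Dio2-/- NoRun 16 and Dio2-/- Run 24. It was not called with chip as a random block (limma adjusted P = 0.213). With a detection p under 0.01 on at least 6 arrays it was not among the tested pairs. The genotype effect of Sox4 ILMN_2727116 was 0.0283 with chip fixed, which rests on the chip 6 arrays alone. That of Sox6 ILMN_1252898 was -0.0017 with array weights and -0.1145 without Dio2-/- NoRun 16 and Dio2-/- Run 24. For running in Dio2-/-, Sox4 ILMN_2893417 was 0.0325 without them, Sox11 ILMN_1235647 0.1446 with array weights and 0.0073 without them, and Sox6 ILMN_1254646 0.0504 and 0.0619. Leaving out single arrays there gave -0.6916 to 0.004 for Sox11 ILMN_1235647, -0.6467 to 0.0441 for Sox5 ILMN_1244213, -1.125 to 0.0049 for Sox6 ILMN_1252898 and -0.4121 to 0.0448 for Sox6 ILMN_1254646. The causes were not tested. Over all probes, calls for running in wild-type ranged from 7 to 2071 across settings, against 45, for running in Dio2-/- from 2 to 5881, against 31, for genotype from 1 to 9, against 1, for genotype in NoRun from 0 to 3374, against 10, in Run from 0 to 19, against 0, and for the interaction from 0 to 827, against 0. The upper end of each of these ranges came from array weights, which did not fully converge. Without that setting the upper ends were 910, 213, 5, 48, 2 and 13 in the same order. Calls over all probe pairs for running in wild-type ranged from 12 to 485, against 141. Chip as a fixed block could not be fitted for running in Dio2-/-, genotype in NoRun or the interaction. Probes near background carry little information on fold changes.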
